A study of Mus musculus with 6 samples.

Results

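ATP-binding cassette (ABC) transporters were measured in fibro/adipogenic progenitors (FAPs), stromal cells that lie between muscle fibres and give rise to fibroblasts and fat cells. Members were the genes whose array probe set carries exactly 1 symbol made of Abca, Abcb, Abcc, Abcd, Abce, Abcf or Abcg and a digit. There were 48 such genes among the 19938 named genes, with 16 Abca, 9 Abcb, 10 Abcc, 3 Abcd, 1 Abce, 3 Abcf and 6 Abcg genes. Abcb5 had more than 1 probe set and was read from the one with the highest mean. The choice of the family, and of Abca within it, was made with the differences from control VMO in these arrays already known, so those differences are given as a description.

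The cells came from male C57/Bl6 mice aged 8 to 12 weeks. All groups, controls included, had tibialis anterior muscles injured with 30 µL of 50% glycerol and received a vivo-morpholino (VMO) after 3 days, and FAPs were isolated 2 days later. A VMO is an antisense oligomer with a delivery group that lets it enter cells of a living animal. The pA-VMO group received VMOs directed to polyadenylation sites, the 5'ss-VMO group a VMO directed to a 5' splice site, and the control group a Control VMO. The transcript addressed is that of Pdgfra, which encodes the alpha receptor for platelet-derived growth factor and in which use of a polyadenylation site inside an intron gives a shortened transcript. There were 2 arrays per group, each with RNA of cells pooled from 4 mice, so no value belongs to a single animal. The reagents were injected into muscle, and the labels do not say which of its cells took them up. One label field names hindlimb muscles where the protocol names the tibialis anterior.

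ABC transporters use ATP to carry substrates across membranes, and a mammalian cell has them in its plasma membrane, mitochondria, peroxisomes, lysosomes and endoplasmic reticulum. Most Abca proteins move lipids. Abca1 passes cholesterol and phospholipid to apolipoprotein A-I, and Abcg1 passes cholesterol on to lipoprotein particles. Abcb and Abcc hold the multidrug exporters, mitochondrial transporters and the sulfonylurea receptors of potassium channels, and Abcd proteins feed fatty acids into peroxisomes. Abce1 and the Abcf proteins share the ATP-binding domains but have no membrane part and act on ribosomes.

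The promoters of 5 Abca genes and of Abcg5 are shown because the values of these genes are described below and because they differ in base composition. In the RefSeq promoter table (GRCm38.p6) 38 of the 48 member genes had an entry, with 45 windows in all, and 15 of the 16 Abca genes had one, the exception being Abca6. Each line gives the 250 bases before the listed start, 5′ to 3′ on the gene's strand. For Abca8a and Abca8b the window lies wholly within the gene model, whose 5′ ends are at 110097580 and 109996274. Capitals mark matches, on either strand, to the GC box GGGCGG, the TATA box TATAAA, the E-box CACGTG, the CCAAT box, the nuclear receptor motif AGGTCA and the AP-1 motif (TGA and TCA with any base between them).
Abca1 (GRCm38.p6, chr4:53159896-53160145, minus strand): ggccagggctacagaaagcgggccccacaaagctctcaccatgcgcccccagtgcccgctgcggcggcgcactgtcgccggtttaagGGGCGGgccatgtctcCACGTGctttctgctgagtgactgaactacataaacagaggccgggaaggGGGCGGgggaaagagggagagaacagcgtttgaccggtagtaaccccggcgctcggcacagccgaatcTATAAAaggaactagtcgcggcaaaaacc
Abca8b (GRCm38.p6, chr11:109995846-109996095, minus strand): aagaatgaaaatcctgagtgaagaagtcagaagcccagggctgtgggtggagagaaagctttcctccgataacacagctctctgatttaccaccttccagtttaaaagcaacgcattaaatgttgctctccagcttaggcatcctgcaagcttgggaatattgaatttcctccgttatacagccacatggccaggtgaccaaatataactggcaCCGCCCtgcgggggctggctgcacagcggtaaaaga
Abca8a (GRCm38.p6, chr11:110095938-110096187, minus strand): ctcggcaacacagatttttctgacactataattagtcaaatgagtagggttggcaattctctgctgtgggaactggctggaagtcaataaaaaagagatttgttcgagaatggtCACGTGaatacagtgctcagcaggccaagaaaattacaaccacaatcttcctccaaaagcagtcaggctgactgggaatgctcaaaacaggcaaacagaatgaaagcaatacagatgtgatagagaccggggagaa
Abca9 (GRCm38.p6, chr11:110168154-110168403, minus strand): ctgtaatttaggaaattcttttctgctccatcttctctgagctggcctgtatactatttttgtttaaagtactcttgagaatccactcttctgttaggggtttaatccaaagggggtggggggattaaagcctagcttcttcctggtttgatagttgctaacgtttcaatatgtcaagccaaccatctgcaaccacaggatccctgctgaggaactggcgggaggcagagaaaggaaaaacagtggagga
Abca5 (GRCm38.p6, chr11:110337717-110337966, minus strand): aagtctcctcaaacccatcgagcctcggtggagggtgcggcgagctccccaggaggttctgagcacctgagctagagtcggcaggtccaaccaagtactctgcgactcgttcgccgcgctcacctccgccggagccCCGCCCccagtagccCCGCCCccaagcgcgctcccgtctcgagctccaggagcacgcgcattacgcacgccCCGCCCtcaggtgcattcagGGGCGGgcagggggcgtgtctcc
Abcg5 (GRCm38.p6, chr17:84683012-84683261, minus strand): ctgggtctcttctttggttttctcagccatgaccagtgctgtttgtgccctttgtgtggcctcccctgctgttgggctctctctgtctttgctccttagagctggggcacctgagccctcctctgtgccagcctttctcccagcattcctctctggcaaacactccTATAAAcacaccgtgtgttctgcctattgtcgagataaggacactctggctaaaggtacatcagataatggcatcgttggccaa
Abca1 and Abca5 have GC-rich windows, with 61.6% and 69.2% G plus C and with 20 and 25 CpG sites. The windows of Abca8a, Abca9 and Abca8b hold 43.2%, 44.4% and 48.8% G plus C and 4, 2 and 6 CpG sites, and the median over all 32851 windows was 52.4% and 6 CpG sites. Abca1 holds GC boxes, an E-box and a TATA box, Abca8a an E-box, Abca8b a GC box on the other strand and Abca5 4 GC boxes, while Abca9 held none of the 6 motifs. The E-box was found in 3 of 15 Abca windows and in 6.02% of all windows, the GC box in 5 of 15 and in 32.7%, the TATA box in 2 of 15 and in 12.4%, and the CCAAT box in 5 of 15 and in 33.8%. AGGTCA was found in 0 of 15 Abca windows, 7 of 45 member windows and 14.0% of all windows, and the AP-1 motif in 0 of 45 member windows and 6.75% of all windows. Only the letters given were searched, so sites that depart from them were not counted. These matches are a description of letters and not of binding.

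Levels are log2 values as deposited, differences are log2 differences between group means with their standard error (SE), and adjusted p values are from limma with Benjamini-Hochberg adjustment over all genes tested, two-sided. A gene was tested if its mean lay above the 25th percentile of all genes (log2 5.21), which 39 of the 48 members did. The 9 others were Abca12, Abca13, Abca14, Abca15, Abca16, Abcb5, Abcb11, Abcc2 and Abcg3. Abcg5 and Abca4 lay just inside that floor with means of 5.32 and 5.36, and Abca12 and Abcb5 just outside with 4.96 each. Over all 14953 genes replicate arrays differed with an SD of 0.124 to 0.13. The median SE of a difference between groups was 0.074. The number of arrays limits the precision, and with 2 arrays a group no exact permutation p can lie below 0.333. Pdgfra measured between 11.24 and 11.37 on the 6 arrays and differed from control by 0.0009 with pA-VMO and by -0.0049 with 5'ss-VMO. Whether its probe set separates the shortened transcript was not examined, so these values were not used as a check of either reagent.

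No ABC transporter gene passed an adjusted p of 0.05 in any comparison. With pA-VMO against control VMO 0 of 39 members were called, beside 0.00669% of all genes, and with 5'ss-VMO against control VMO 0 of 39, beside 0.582%. Between pA-VMO and 5'ss-VMO 0 of 39 were called, beside 0.0602% of all genes, and with the mean of both Pdgfra VMOs against control VMO 0 of 39, beside 0.174%. At an unadjusted p under 0.05 there were 7 members with pA-VMO against control (17.9% of the 39, beside 11.4% of all genes) and 6 with 5'ss-VMO (15.4%, beside 13.9%). The corresponding counts were 8 between the reagents (20.5%, beside 15.9%) and 10 with both reagents together (25.6%, beside 11.5%). Both comparisons with control use the same control arrays, so their values are not independent of each other.

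All 11 tested Abca genes, lipid transporters for the most part, had a negative difference with pA-VMO, where 44.8% of all genes did, and their median difference was -0.13 against 0.01 over all genes. With 5'ss-VMO all 11 were negative too, where 49.6% of all genes were, and their median was -0.15 against 0.00. Both pA-VMO arrays lay below both control arrays for 8 of the 11 genes (18.8% of all genes), and both 5'ss-VMO arrays did for 7 of the 11 (21.5%). At an unadjusted p under 0.05 there were 3 lower Abca genes with pA-VMO (5.23% of all genes) and 4 with 5'ss-VMO (6.19%). With both reagents together all 11 were negative (47% of all genes), 6 of them reached it (4.98%), and all 4 arrays lay below both controls for 6 (8.38%). The counts of arrays below control include Abca2, whose higher pA-VMO array, at 7.005, lay just below its lower control, at 7.008. Leaving out 1 array at a time gave 10 or 11 negative Abca genes in each of these 3 comparisons. Without the first control array the counts at an unadjusted p under 0.05 were 2 for pA-VMO, 1 for 5'ss-VMO and 1 for both, without the second 5'ss-VMO array 1 for 5'ss-VMO and 4 for both, and without the second pA-VMO array 2 for pA-VMO and 2 for both. Since Abca was singled out with these differences in view, the counts describe these arrays and were given no test as a set. Between pA-VMO and 5'ss-VMO 5 of the 11 were negative (48.5% of all genes), and their median difference was 0.01.

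**Figure D1:**
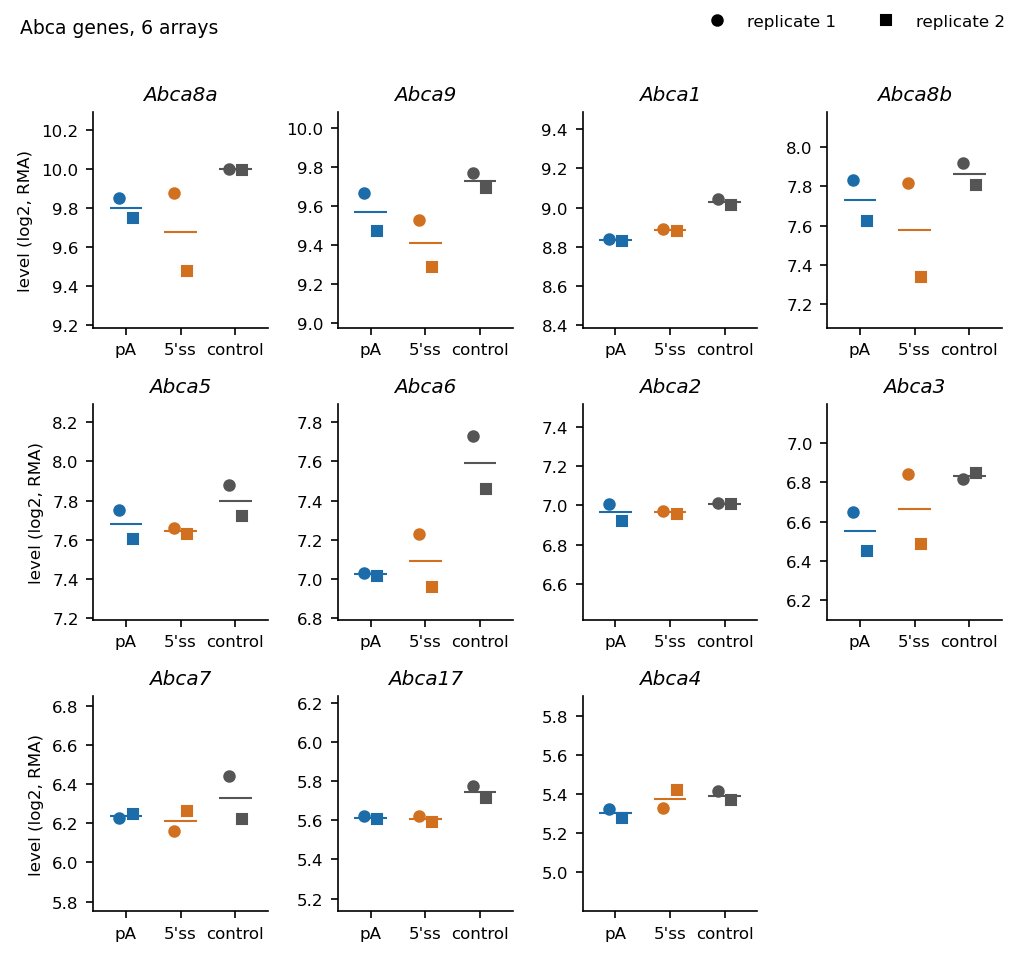
Log2 level of the 11 tested Abca genes on each array (vertical axis, RMA log2), with pA-VMO and 5'ss-VMO left of control VMO; points are arrays, with the shape giving the replicate, and bars are group means. Abca6 lies between 6.96 and 7.23 on the 4 arrays with a Pdgfra VMO and at 7.73 and 7.46 on the control arrays, and the second 5'ss-VMO array is the lowest point for Abca8a, Abca8b and Abca9.

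Abca6 had the largest difference from control among the 39 tested members. It encodes a lipid-transporter-like protein whose substrate is not settled, and it lies in a row of related Abca genes on chromosome 11. Abca6 measured 7.03 and 7.02 on the pA-VMO arrays, 7.23 and 6.96 on the 5'ss-VMO arrays, and 7.73 and 7.46 on the control arrays. All 4 arrays with a Pdgfra VMO lay below both controls. The difference was -0.57 ± 0.11 with pA-VMO (95% interval -0.82 to -0.32, 1.48-fold, adjusted p = 0.204) and -0.50 ± 0.11 with 5'ss-VMO (95% interval -0.75 to -0.25, 1.41-fold, adjusted p = 0.0999). With both together it was -0.53 ± 0.09 (adjusted p = 0.0829). The reagents differed from each other by -0.07 ± 0.11 (adjusted p = 0.8). Leaving out 1 array at a time gave differences from control of -0.71 to -0.43 with pA-VMO and -0.63 to -0.36 with 5'ss-VMO. With both together the range was -0.67 to -0.40. Abca6 was the only member called under any alternative setting, with an adjusted p of 0.0326 for pA-VMO, 0.0214 for 5'ss-VMO and 0.0089 for both when the variance was moderated with a trend and robustly.

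The other genes of that row are Abca8b, Abca8a, Abca9 and Abca5, which with Abca6 are 5 adjacent genes in the annotation. Abca8a and Abca9 encode proteins thought to handle lipids, with substrates less well known than those of Abca1. Abca8a measured 9.85 and 9.75 with pA-VMO, 9.88 and 9.48 on the 5'ss-VMO arrays, and 10.001 and 9.992 on the control arrays. Abca9 measured 9.66 and 9.47 with pA-VMO, 9.53 and 9.29 on the 5'ss-VMO arrays, and 9.77 and 9.69 on the control arrays. For both genes no array with a Pdgfra VMO reached the lower control. Abca8a differed from control by -0.20 ± 0.11 with pA-VMO (adjusted p = 0.552), and with 5'ss-VMO by -0.32 ± 0.11 (adjusted p = 0.275). The differences of Abca9 were -0.16 ± 0.10 with pA-VMO (adjusted p = 0.563) and -0.32 ± 0.10 with 5'ss-VMO (adjusted p = 0.215). The second 5'ss-VMO array was the lowest for both. Without it the 5'ss-VMO difference was -0.12 for Abca8a and -0.20 for Abca9. Without the second pA-VMO array the pA-VMO difference of Abca9 was -0.06.

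Abca8b and Abca5 overlapped more. Abca8b, an exporter of cholesterol in mouse cells, measured 7.83 and 7.62 with pA-VMO, 7.82 and 7.34 on the 5'ss-VMO arrays, and 7.92 and 7.81 on the control arrays. Its difference was -0.13 ± 0.14 with pA-VMO (adjusted p = 0.763) and -0.29 ± 0.14 with 5'ss-VMO (adjusted p = 0.401), and -0.05 with 5'ss-VMO when the second 5'ss-VMO array was left out. Without the second pA-VMO array its pA-VMO difference was -0.03. Abca5, a protein of lysosomes and late endosomes, measured 7.75 and 7.61 with pA-VMO, 7.66 and 7.63 on the 5'ss-VMO arrays, and 7.88 and 7.72 on the control arrays. It differed by -0.12 ± 0.08 with pA-VMO (adjusted p = 0.603), and with 5'ss-VMO by -0.15 ± 0.08 (adjusted p = 0.425). Without the first control array these values of Abca5 were -0.04 for pA-VMO and -0.07 for 5'ss-VMO. Over the 5 genes of the row the median difference from control was -0.16 for pA-VMO and -0.32 for 5'ss-VMO.

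The nearest tested protein-coding genes on each side of the row were read for comparison. Genes in between that were not tested were passed over, and distances from the row were not considered. On one side lie Prkar1a, a regulatory subunit of protein kinase A, Fam20a and 1700012B07Rik, and on the other Map2k6, a kinase of the p38 pathway, Sox9, a transcription factor of cartilage, and Slc39a11. With both reagents together against control, Prkar1a differed by 0.04, Fam20a by -0.0002 and 1700012B07Rik by -0.05. Map2k6 differed by -0.15, Sox9 by -0.08 and Slc39a11 by -0.02. None of the 6 passed the test. Map2k6 thus lay as far below control as Abca5, at -0.14, and all 4 of its arrays with a Pdgfra VMO were below both controls. With 5'ss-VMO alone Map2k6 differed by -0.17 and 1700012B07Rik by -0.15, against -0.15 for Abca5. The difference between the row and these genes was not tested.

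Abca1, the exporter that loads apolipoprotein A-I with cholesterol, was the most even of the Abca genes between replicate arrays with both reagents. It measured 8.84 and 8.83 with pA-VMO, 8.89 and 8.88 on the 5'ss-VMO arrays, and 9.05 and 9.01 on the control arrays. The 4 arrays with a Pdgfra VMO lay below both controls. The difference was -0.20 ± 0.06 with pA-VMO (adjusted p = 0.314) and -0.14 ± 0.06 with 5'ss-VMO (adjusted p = 0.348). Leaving out any 1 array kept the 5'ss-VMO difference between -0.16 and -0.13.

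Abca3 and Abca17 are neighbours on chromosome 17 that are read from opposite strands. The starts in the promoter table have 963 bases between them, while the gene models overlap slightly at those ends. Abca3 carries phospholipid into the lamellar bodies of lung cells. It measured 6.65 and 6.45 with pA-VMO, 6.84 and 6.49 on the 5'ss-VMO arrays, and 6.82 and 6.85 on the control arrays. Its first 5'ss-VMO array thus lay between the controls and the second far below. The difference was -0.28 ± 0.11 with pA-VMO (adjusted p = 0.397) and -0.17 ± 0.11 with 5'ss-VMO (adjusted p = 0.546), and 0.01 without the second 5'ss-VMO array. Abca17 measured 5.62 and 5.61 with pA-VMO, 5.62 and 5.59 on the 5'ss-VMO arrays, and 5.78 and 5.71 on the control arrays. It differed by -0.13 ± 0.06 with pA-VMO (adjusted p = 0.476), and with 5'ss-VMO by -0.14 ± 0.06 (adjusted p = 0.373).

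The other 3 tested Abca genes lay closer to control. Abca2, a lipid transporter of endosomes best known from the brain, differed by -0.05 with pA-VMO and by -0.04 with 5'ss-VMO, and measured 7.01 on both control arrays. Abca7, a relative of Abca1, differed by -0.09 with pA-VMO and by -0.12 with 5'ss-VMO, and its arrays overlapped those of control. Abca4, the retinal transporter of photoreceptors, lay near the floor and differed by -0.09 with pA-VMO and by -0.02 with 5'ss-VMO. The 5 Abca genes below the floor measured between 3.40 and 5.04 on every array and were not tested.

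Markers of the cells that a FAP preparation can hold also differed between the groups, and all 16 FAP markers measured lay above the floor. The 16 tested FAP and fibroblast markers had a mean log2 level of 11.20 and 11.22 with pA-VMO, 11.22 and 11.18 on the 5'ss-VMO arrays, and 11.31 and 11.28 on the control arrays. Their median difference was -0.05 with pA-VMO (10 of 16 lower) and -0.07 with 5'ss-VMO (11 of 16 lower). Of these markers 1, Dpp4, a surface peptidase of progenitors, passed the test with 5'ss-VMO, at -0.52 (adjusted p = 0.0318). It also passed with both reagents together, at -0.49 (adjusted p = 0.0443). With pA-VMO alone Dpp4 differed by -0.45 (adjusted p = 0.204). The 16 macrophage markers averaged 6.75 and 6.75 with pA-VMO, 6.88 and 6.85 on the 5'ss-VMO arrays, and 6.51 and 6.69 on the control arrays, with 13 of 16 higher for pA-VMO and 14 for 5'ss-VMO. Among them the complement genes C1qc and C1qa rose with 5'ss-VMO by 0.50 and 0.39 (adjusted p = 0.0249 and 0.0472). The 10 pericyte and smooth muscle markers averaged 7.46 and 7.46 with pA-VMO, 7.55 and 7.61 on the 5'ss-VMO arrays, and 7.32 and 7.33 on the control arrays, with 7 of 10 higher for pA-VMO and 9 for 5'ss-VMO, and Mcam, an adhesion protein, rose with 5'ss-VMO by 0.42 (adjusted p = 0.0443). With pA-VMO Mcam differed by 0.27 (adjusted p = 0.261). The 12 endothelial markers averaged 6.30 and 6.22 with pA-VMO, 6.31 and 6.30 on the 5'ss-VMO arrays, and 6.09 and 6.20 on the control arrays, with 9 of 12 higher for pA-VMO and 8 for 5'ss-VMO, and Cdh5, the endothelial cadherin, rose with 5'ss-VMO by 0.70 (adjusted p = 0.0055). Cdh5 differed by 0.29 with pA-VMO (adjusted p = 0.251) and passed with both reagents together, at 0.49 (adjusted p = 0.031). Satellite cell markers had medians of -0.01 (pA-VMO) and 0.28 (5'ss-VMO) over 10 tested genes, where Chrna1 rose with 5'ss-VMO by 0.62 (adjusted p = 0.0283). Medians were 0.01 (pA-VMO) and 0.06 (5'ss-VMO) for 9 muscle fibre markers and 0.04 (pA-VMO) and -0.13 (5'ss-VMO) for 5 adipocyte markers, none of which passed. Fewer cells of a type and less RNA per cell cannot be told apart in such samples, and the part of these markers in the Abca values was not tested.

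**Figure D2:**
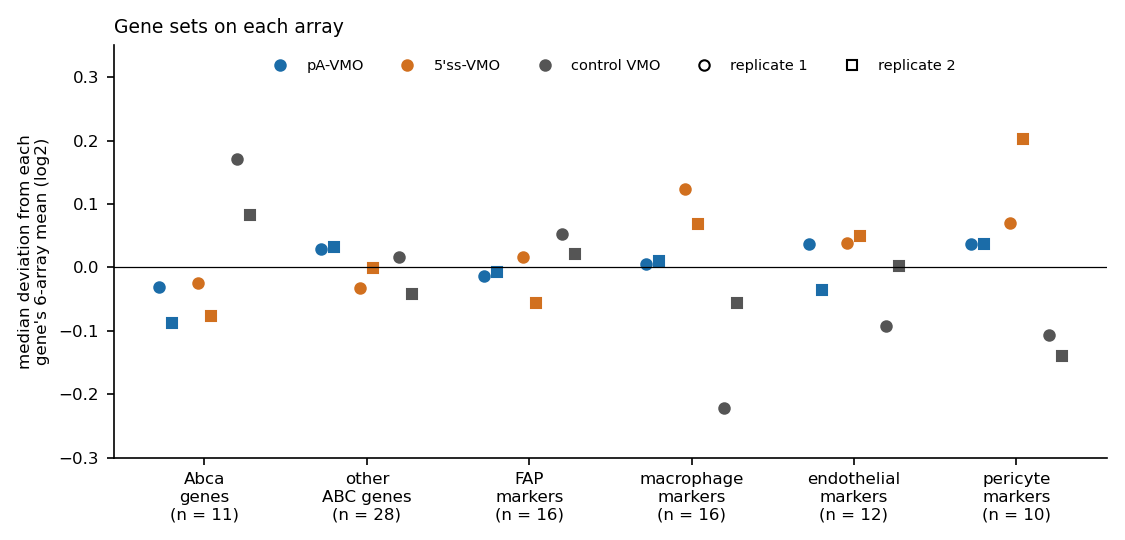
Median over the tested genes of a set of the deviation from each gene's mean over 6 arrays (vertical axis, log2), for each array, with the number of genes under each set name; colour gives the group and shape the replicate. Abca genes lie between -0.09 and -0.02 on the 4 arrays with a Pdgfra VMO and at 0.17 and 0.08 on the control arrays, while the macrophage and pericyte markers lie lowest on the control arrays.

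The 28 tested ABC genes outside Abca had a median difference of 0.05 with pA-VMO and of -0.01 with 5'ss-VMO against control. With pA-VMO 7 of the 28 had a negative difference (44.8% of all genes), and with 5'ss-VMO 17 did (49.6%). All 4 arrays with a Pdgfra VMO lay above both controls for 5 of the 28 (10.3% of all genes). Between the reagents 22 of the 28 lay higher with pA-VMO and 6 lower, where 48.5% of all genes were lower. The plot of differences shows each member in both comparisons with control.

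**Figure D3:**
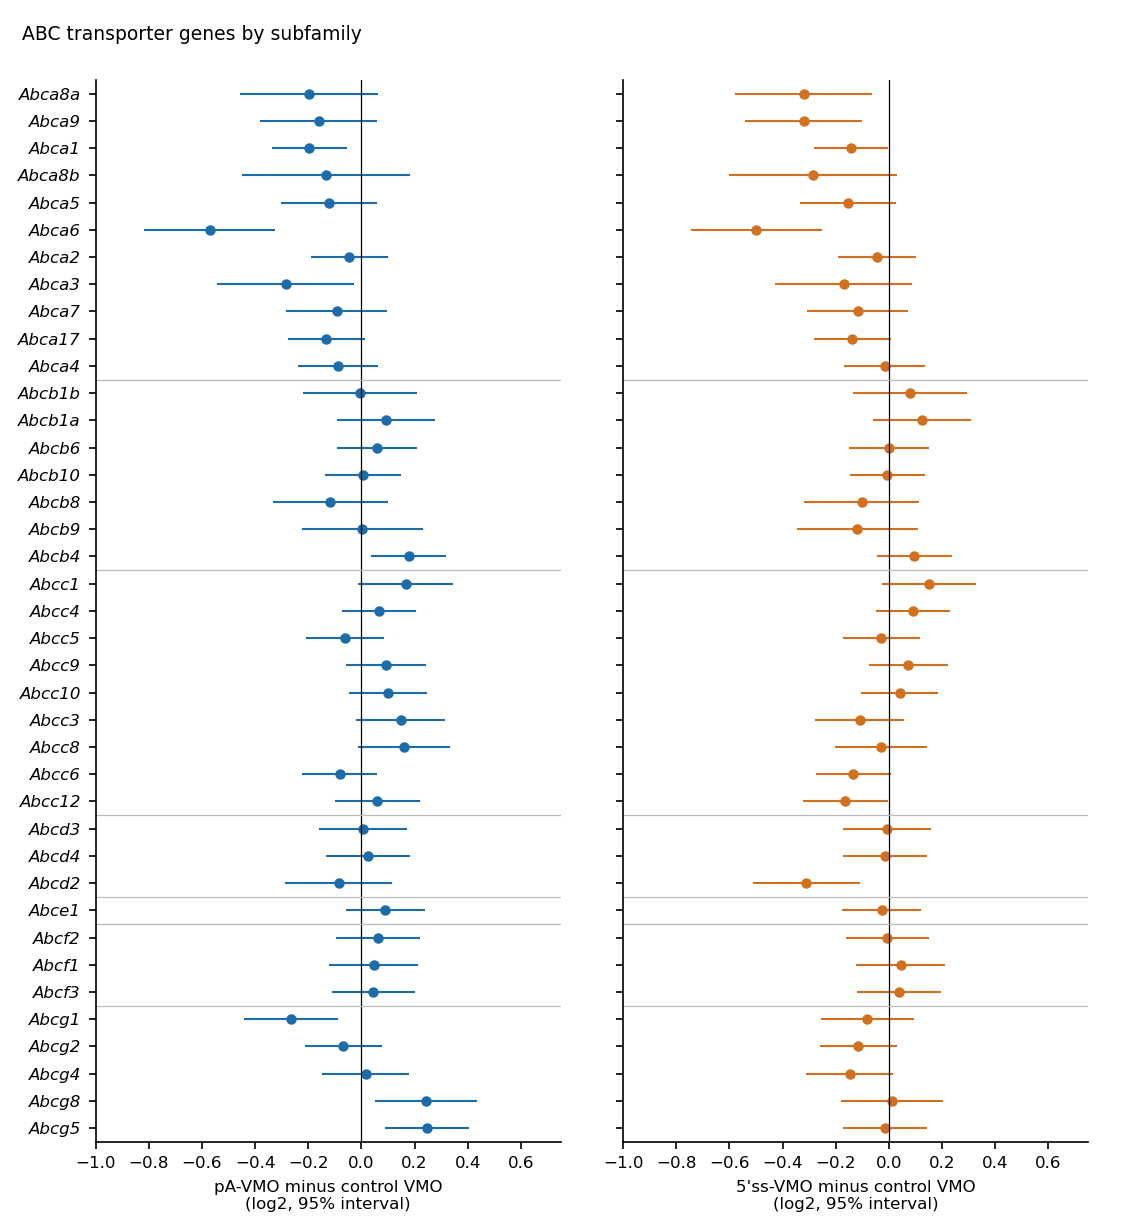
Log2 difference from control VMO of each of the 39 tested ABC genes, grouped by subfamily, with pA-VMO in the left panel and 5'ss-VMO in the right; points are differences (horizontal axis, log2) and lines their 95% intervals from limma. Abca genes all lie left of 0, with Abca6 farthest at -0.57 (pA-VMO) and -0.50 (5'ss-VMO). The Abcb, Abcc and Abcg genes lie on both sides in each panel, while Abcf is to the right with pA-VMO and Abcd to the left with 5'ss-VMO.

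Among the Abcg genes, which include sterol exporters, Abcg1 lay low with pA-VMO. Abcg1 measured 7.73 and 7.77 with pA-VMO, 8.02 and 7.84 on the 5'ss-VMO arrays, and 7.96 and 8.06 on the control arrays. Both pA-VMO arrays were below all 4 others. The difference from control was -0.26 ± 0.08 with pA-VMO (adjusted p = 0.297) and -0.08 ± 0.08 with 5'ss-VMO (adjusted p = 0.687), and the reagents differed by -0.18 ± 0.08 (adjusted p = 0.296), and by -0.10 without the first 5'ss-VMO array. Abcg2, a multidrug and urate exporter that marks side population cells of many tissues, measured 7.86 and 7.85 with pA-VMO, 7.78 and 7.84 on the 5'ss-VMO arrays, and 7.95 and 7.90 on the control arrays. It differed by -0.07 with pA-VMO and by -0.12 with 5'ss-VMO.

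Abcg5 and Abcg8, which form together the sterol exporter of liver and gut, are read from opposite strands and their gene models overlap. Of the 2 starts that the promoter table lists for Abcg8, 1 lies beyond the Abcg5 start with 109 bases between them, within the window printed above for Abcg5. Their probe sets gave values near the floor. Abcg5 measured 5.43 and 5.56 with pA-VMO, 5.23 and 5.23 on the 5'ss-VMO arrays, and 5.24 and 5.25 on the control arrays. Abcg8 measured 5.89 and 5.89 with pA-VMO, 5.54 and 5.77 on the 5'ss-VMO arrays, and 5.70 and 5.59 on the control arrays. In both genes the pA-VMO arrays were the highest of the 6. Against control Abcg5 differed by 0.25 ± 0.07 with pA-VMO (adjusted p = 0.278), and with 5'ss-VMO by -0.01 ± 0.07, and Abcg8 by 0.24 ± 0.08 with pA-VMO (adjusted p = 0.351), and with 5'ss-VMO by 0.01 ± 0.08. The pA-VMO level exceeded the 5'ss-VMO level by 0.26 for Abcg5 (adjusted p = 0.139) and by 0.23 for Abcg8 (adjusted p = 0.235), and by 0.12 for Abcg8 without the first 5'ss-VMO array. Abcg4, a sterol exporter known from nerve cells, measured 6.32 and 6.22 with pA-VMO, 6.04 and 6.17 on the 5'ss-VMO arrays, and 6.24 and 6.27 on the control arrays, and the reagents differed by 0.16 ± 0.07 (adjusted p = 0.312), and by 0.10 without the first 5'ss-VMO array.

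The Abcc subfamily lay higher with pA-VMO in 7 of its 9 tested genes, beside 8252 of all 14953 genes. Both pA-VMO arrays lay above both controls in the same 7 (24.1% of all genes). With 5'ss-VMO 4 of 9 lay higher, beside 7542 of all 14953 genes. All 4 had both arrays above the controls (23.2% of all genes). Abcc1, the exporter of glutathione conjugates and of leukotriene C4, measured 8.83 and 8.88 with pA-VMO, 8.82 and 8.86 on the 5'ss-VMO arrays, and 8.79 and 8.59 on the control arrays, and differed by 0.17 ± 0.08 with pA-VMO (adjusted p = 0.469), and with 5'ss-VMO by 0.15 ± 0.08 (adjusted p = 0.429). Without the second control array, the lowest, these were 0.07 for pA-VMO and 0.05 for 5'ss-VMO. Abcc4, an exporter of cyclic nucleotides and prostaglandins, differed by 0.07 with pA-VMO and by 0.09 with 5'ss-VMO, and Abcc10 by 0.10 with pA-VMO and by 0.04 with 5'ss-VMO. Abcc5 differed by -0.06 with pA-VMO and by -0.03 with 5'ss-VMO, and Abcc6, whose loss causes calcification of soft tissue, by -0.08 with pA-VMO and by -0.13 with 5'ss-VMO. None of these passed the test.

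Abcc3, Abcc12 and Abcc8 separated the reagents most among the Abcc genes. Abcc3, an exporter of bile acids and glucuronides, measured 6.58 and 6.43 with pA-VMO, 6.28 and 6.22 on the 5'ss-VMO arrays, and 6.40 and 6.32 on the control arrays. Abcc12 measured 5.82 and 5.81 with pA-VMO, 5.64 and 5.54 on the 5'ss-VMO arrays, and 5.81 and 5.70 on the control arrays. In both genes the controls lay between the reagents. For Abcc12 the margin was small, with 5.812 on the lower pA-VMO array and 5.809 on the higher control. The pA-VMO level exceeded the 5'ss-VMO level by 0.26 ± 0.07 for Abcc3 (adjusted p = 0.162) and by 0.22 ± 0.07 for Abcc12 (adjusted p = 0.188). Abcc8, the sulfonylurea receptor of pancreatic beta cells, measured 6.27 and 6.14 with pA-VMO, 6.06 and 5.97 on the 5'ss-VMO arrays, and 5.99 and 6.10 on the control arrays, and the reagents differed by 0.19 ± 0.08 (adjusted p = 0.278), and by 0.12 without the first pA-VMO array.

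Abcc9, the sulfonylurea receptor of vascular cells, is also a gene of pericytes, where 7 of 10 tested markers lay higher for pA-VMO and 9 for 5'ss-VMO. It measured 6.93 and 6.86 with pA-VMO, 6.87 and 6.88 on the 5'ss-VMO arrays, and 6.84 and 6.76 on the control arrays, and differed by 0.09 with pA-VMO and by 0.07 with 5'ss-VMO. The part of pericytes in these values was not tested. Kcnj8, the pore that pairs with Abcc9 and is itself on the pericyte list, measured 6.04 and 6.01 with pA-VMO, 6.11 and 5.87 on the 5'ss-VMO arrays, and 6.13 and 6.06 on the control arrays. All 4 tested channel genes of the list of potassium channel pores had negative differences, with medians of -0.07 (pA-VMO) and -0.21 (5'ss-VMO), and none passed the test. Kcnj11, the pore that pairs with Abcc8, differed by -0.07 with pA-VMO, against a 5'ss-VMO difference of -0.27 (adjusted p = 0.173).

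**Figure D4:**
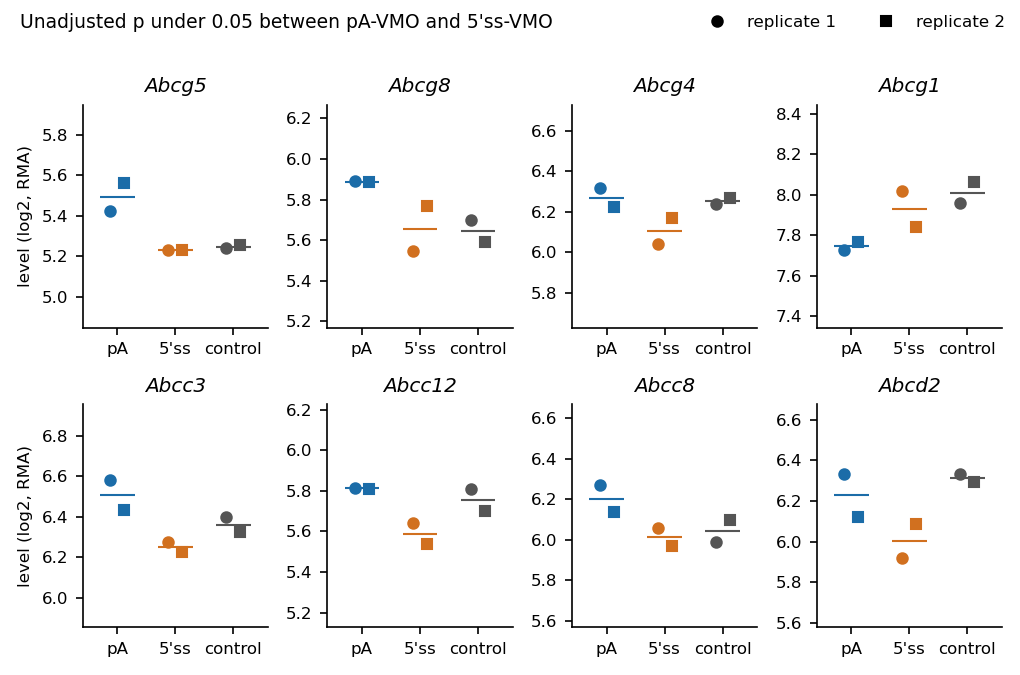
Log2 level on each array (vertical axes, RMA log2) of the 8 ABC genes with an unadjusted p under 0.05 between pA-VMO and 5'ss-VMO; points are arrays, with the shape giving the replicate, and bars are group means. All but Abcg1 lie higher with pA-VMO than with 5'ss-VMO, and none of the 8 passed the adjusted test.

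Between the reagents both pA-VMO arrays lay above both 5'ss-VMO arrays for 13 of the 39 members (25.5% of all genes) and below them for 4 (23.7%). At an unadjusted p under 0.05, 7 members of 39 lay higher with pA-VMO (8.81% of all genes) and 1, Abcg1, lower (7.11%). None of the 39 passed the adjusted test.

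In Abcd, the peroxisomal subfamily, Abcd2 stood apart from Abcd3 and Abcd4. Abcd2, a carrier of very long chain fatty acids, measured 6.33 and 6.12 with pA-VMO, 5.92 and 6.09 on the 5'ss-VMO arrays, and 6.33 and 6.29 on the control arrays. Both 5'ss-VMO arrays lay below all 4 others. The reagents differed by 0.23 ± 0.09 (adjusted p = 0.262), and by 0.12 without the first pA-VMO array. The difference from control was -0.09 ± 0.09 with pA-VMO (adjusted p = 0.763) and -0.31 ± 0.09 with 5'ss-VMO (adjusted p = 0.193). Abcd3, the major peroxisomal membrane carrier, and Abcd4, which serves cobalamin transport in lysosomes, differed by 0.01 and 0.02 with pA-VMO and by -0.01 and -0.01 with 5'ss-VMO. The 14 tested genes of peroxisomal oxidation and assembly had medians of -0.01 (pA-VMO) and -0.02 (5'ss-VMO), and none passed.

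The Abcb genes lay around control, with medians of 0.01 (pA-VMO) and 0.00 (5'ss-VMO) over 7 tested genes. Abcb4, the phosphatidylcholine floppase of bile, measured 5.57 and 5.55 with pA-VMO, 5.49 and 5.46 on the 5'ss-VMO arrays, and 5.36 and 5.40 on the control arrays. The 3 groups did not overlap, and the difference was 0.18 ± 0.06 with pA-VMO (adjusted p = 0.351) and 0.10 ± 0.06 with 5'ss-VMO (adjusted p = 0.531). The multidrug exporters Abcb1a and Abcb1b differed by 0.09 and -0.01 with pA-VMO and by 0.12 and 0.08 with 5'ss-VMO, with arrays that overlapped. Abcb1a is also known from endothelium, where 9 of 12 tested markers lay higher for pA-VMO and 8 for 5'ss-VMO, and its part in these values was not tested. The mitochondrial genes Abcb8 and Abcb10 differed by -0.12 and 0.01 with pA-VMO and by -0.10 and -0.01 with 5'ss-VMO, and Abcb6, a porphyrin transporter, by 0.06 with pA-VMO and by 0.0004 with 5'ss-VMO. The lysosomal peptide carrier Abcb9 differed by 0.00 with pA-VMO and by -0.12 with 5'ss-VMO. The 16 tested genes of haem and iron-sulfur synthesis had medians of -0.01 (pA-VMO) and 0.01 (5'ss-VMO), and none passed.

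Abce1, the ribosome recycling factor, measured 10.11 and 10.07 with pA-VMO, 9.96 and 9.98 on the 5'ss-VMO arrays, and 10.04 and 9.96 on the control arrays, and differed by 0.09 with pA-VMO and by -0.03 with 5'ss-VMO. Abcf1, Abcf2 and Abcf3, which act in translation, differed by 0.05, 0.06 and 0.04 with pA-VMO and by 0.04, -0.01 and 0.04 with 5'ss-VMO. Of the 15 genes of ribosome recycling and initiation 12 had a positive difference with pA-VMO (8252 of all 14953 genes) and 9 had one with 5'ss-VMO (7542). Their medians were 0.04 (pA-VMO) and 0.05 (5'ss-VMO), and none passed.

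Genes of sterol handling were read beside Abca1, Abcg1 and their relatives. The 20 tested genes of cholesterol synthesis and uptake had medians of 0.08 with pA-VMO (15 of 20 higher) and 0.07 with 5'ss-VMO (13 of 20 higher). Their mean level was 7.29 and 7.24 on the pA-VMO arrays, 7.11 and 7.29 on the 5'ss-VMO arrays, and 7.15 and 7.07 on the control arrays, so the first 5'ss-VMO array lay between the controls and only the second above them. Cyp51, the lanosterol demethylase, measured 7.75 and 7.65 with pA-VMO, 7.39 and 7.82 on the 5'ss-VMO arrays, and 7.31 and 6.86 on the control arrays. It differed by 0.62 ± 0.16 with pA-VMO (adjusted p = 0.252), and with 5'ss-VMO by 0.52 ± 0.16 (adjusted p = 0.223), and Stard4, a sterol carrier, differed by 0.34 ± 0.09 with pA-VMO (adjusted p = 0.251), and with 5'ss-VMO by 0.31 ± 0.09 (adjusted p = 0.182). The 16 tested targets and regulators of the liver X receptors, sterol sensors that raise Abca1 and Abcg1, had medians of -0.05 with pA-VMO (9 of 16 lower) and -0.07 with 5'ss-VMO (10 of 16 lower). Among them Scd1, a fatty acid desaturase, differed by -0.30 with pA-VMO (adjusted p = 0.251), and with 5'ss-VMO by -0.33 (adjusted p = 0.111), and Mylip, which degrades the LDL receptor, by -0.31 with pA-VMO (adjusted p = 0.252). The 12 lipoprotein partners had medians of -0.01 (pA-VMO) and -0.05 (5'ss-VMO), and Cd36, a fatty acid and lipoprotein receptor, differed by 0.46 with pA-VMO (adjusted p = 0.251), and with 5'ss-VMO by 0.34 (adjusted p = 0.236). No gene of these 3 lists passed the test. Npc2, which hands cholesterol out of lysosomes, with 5'ss-VMO differed by 0.23 (adjusted p = 0.188).

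The targets of NRF2, which drives glutathione genes and several Abcc exporters, had medians of -0.02 (pA-VMO) and -0.09 (5'ss-VMO) over 16 tested genes. Gsta4, a glutathione transferase, differed by -0.36 with pA-VMO (adjusted p = 0.204), and Ggt5, which cleaves leukotriene C4, by -0.31 with 5'ss-VMO (adjusted p = 0.0948), and none passed.

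ABC proteins whose symbols start otherwise were not members. Tap1, which with Tap2 carries peptides into the endoplasmic reticulum for antigen display, measured 9.43 and 9.53 with pA-VMO, 9.70 and 9.72 on the 5'ss-VMO arrays, and 9.23 and 9.38 on the control arrays. It differed by 0.18 ± 0.07 with pA-VMO (adjusted p = 0.419), and with 5'ss-VMO by 0.41 ± 0.07 (adjusted p = 0.0575). Tap2 differed by 0.03 with pA-VMO and by 0.08 with 5'ss-VMO. Psmb9, a subunit of the immunoproteasome, differed by 0.35 with 5'ss-VMO (adjusted p = 0.0954), and none of the 11 tested genes of peptide loading passed. Cftr, the chloride channel of the family, lay below the floor.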

How the data were processed

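RNA of FAPs was measured on 6 Affymetrix Mouse Gene 1.0 ST arrays, 2 for each of 3 groups, from 100 ng of total RNA per the labels' protocols. The deposited log2 values were made by the authors with RMA in Affymetrix Expression Console, per the submitters' processing notes; no source used here gives its version or settings. RMA equalises the distributions of arrays and compresses changes of dim probe sets, so a change in total RNA per cell cannot be seen. The log2 values ran from 1.38 to 13.5 and arrays correlated at 0.99 over all probe sets. No scan dates were used here, so no batch of arrays could be tested.

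Of 35556 probe sets 21789 have 1 symbol in the platform annotation, 1621 several and 12146 none, and 21698 matched a RefSeq gene. Where a gene had several (999 genes), the probe set of highest mean stood for it. The fit used limma 3.58.1 in R 4.3.3 (eBayes without trend, not robust, no block) on all 6 arrays, with 3 residual and 6.06 prior degrees of freedom, over 14953 genes, in 4 comparisons. The procedure was tested on simulated data. Each array is a separate pool of mice, and p-values measure the spread between pools. Fold sizes were computed from log2 differences.

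The members, the gene lists and the cell type markers were chosen with earlier results of these data known. The text names every Abca gene, the highest-mean and the lowest-p members of the other subfamilies, called members and the lowest-p members of each list, Pdgfra, Tap1, Tap2 and Cftr; others are named for completeness. Promoter windows, 250 bases of each window of 300, are RefSeq's. Alternatives were the filter on low values, the moderation, the arrays in the fit, the replicate number as a block, the mean of all probe sets, centring of arrays and leaving out each array. Over all 14953 genes same-numbered arrays did not deviate together. Their deviations from group means correlated at -0.03 between pA-VMO and 5'ss-VMO. The correlation was -0.10 between pA-VMO and control VMO and 0.02 between 5'ss-VMO and control VMO. The tested Abca genes had a lower mean on the second array of each group. That mean was 7.44 and 7.35 with pA-VMO, 7.45 and 7.30 on the 5'ss-VMO arrays, and 7.62 and 7.53 on the control arrays. Whether same-numbered arrays share a source was not tested.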

Additional observations from a re-analysis of the deposited data

Results flagged for a closer look

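For Abcg5, Abcc3 and Abcc12 both pA-VMO arrays lay above both control arrays and both 5'ss-VMO arrays lay below them. For Abcg5 the 5'ss-VMO difference from control was only -0.01. For Abcc12 the pA-VMO difference from control was only 0.06. Its lower pA-VMO array, at 5.812, lay just above its higher control, at 5.809. The pA-VMO level exceeded the 5'ss-VMO level by 0.26 for Abcg5, by 0.26 for Abcc3 and by 0.22 for Abcc12 (log2), and in the limma test of that difference the adjusted p was 0.139, 0.162 and 0.188, so none passed. The same placement, in either order of the reagents, was found in 740 of the 14953 genes tested (4.95%) and in 3 of the 39 tested ABC genes. The groups have 2 arrays each, so no array could be tested as lying apart from its group.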

How the results depend on the processing

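No result reversed its direction under the alternatives, where a value counts as having a direction if its unadjusted p was under 0.05. The count of ABC genes called, 0 in the 4 comparisons, became 1 with trend and robust moderation in the 3 comparisons with control, and 1 with the 50th percentile filter and 1 with the replicate block for 5'ss-VMO and for both Pdgfra VMOs against control; the gene was Abca6 each time. With the block its adjusted p was 0.0443 and 0.0382, and the differences kept their values. No label says that equal replicate numbers pair arrays. The count over all genes (against control 1 for pA-VMO, 87 for 5'ss-VMO and 26 for both, and 9 between the reagents) was, in that order, 0, 24, 0 and 3 with no filter and 49, 265, 179 and 186 with trend and robust moderation. With the 50th percentile filter it was 181, 100 and 102 for the last 3. It was 23 between the reagents with the replicate block, 15 with the mean of all probe sets, and 17 for both with centred arrays. For pA-VMO against control alone a replicate block with crossed pairing, chosen after seeing the data, gave 5 genes, of which 0 were ABC genes. Leaving out each array gave 0 to 2, 8 to 42, 0 to 8 and 1 to 18 genes; an arm left with 1 array was assumed to vary like the others. The median of the tested Abca genes was -0.23 and -0.22 with the 50th percentile filter for 5'ss-VMO and for both, and leaving out each array gave -0.20 to -0.10 for pA-VMO, -0.23 to -0.12 for 5'ss-VMO and -0.22 to -0.13 for both. Every array enters the fit for both, so that comparison has no fit on fewer groups. With 2 arrays a group, most differences of the ABC genes lie within their 95% intervals of 0.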
